A study of Mus musculus with 12 samples.

Results

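The genes described here are 32 genes of fatty acid oxidation, read in plasmacytoid dendritic cells (pDC) of BALB/c mice after culture with 3 classes of CpG oligodeoxynucleotide. They were chosen by name, with earlier results of these data known. They are enzymes of mitochondrial and peroxisomal beta-oxidation, the transporters and transferases that feed them and 2 receptors that regulate them. All 32 had a row among the 21573 genes of the deposited expression table. Of these, 30 reached at least 1 FPKM in at least 3 libraries and were tested, and none of the 30 reached that level in libraries of 1 group alone. FPKM are fragments per kilobase of transcript scaled to library size, so levels are comparable between genes only on this per-length scale. Acsl3 and Ppara were below that filter and are given by their values.

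Each class, CpG-A, CpG-B and CpG-C, was given at 0.5 µM for 24 h to the pDC of 3 libraries, and 3 further libraries, 12 in all, came from control pDC for which the labels name no class. All were from bone marrow of BALB/c mice at postnatal days 56 to 63, of a single strain with no genetic change stated, and the cells were sorted. The gate, its place before or after culture, and whether replicates came from different animals are not given in the sources used here, so p-values measure only the spread between libraries, which may be technical. As a class, CpG-A oligodeoxynucleotides carry a phosphodiester centre with a palindrome and phosphorothioate guanine-rich ends, CpG-B are linear with a phosphorothioate backbone throughout, and CpG-C join a phosphorothioate backbone to a palindrome; the labels give the class names only.

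Beta-oxidation shortens fatty acids stepwise. A synthetase links the acid to coenzyme A, the carnitine shuttle carries it into the mitochondrion, and a dehydrogenase, a hydratase, a second dehydrogenase and a thiolase release acetyl-CoA, while electrons pass through the electron transfer flavoprotein to the respiratory chain. Very long and branched chains begin in the peroxisome, and double bonds need auxiliary isomerases and reductases. pDC sense CpG DNA through TLR9 and make type I interferon, and type I interferon has been reported to raise fatty acid oxidation in mouse pDC.

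The pDC markers were present, and their level differed between groups. All 16 pDC markers checked, among them Siglech, Bst2 and Tcf4, were at 1 FPKM or more in the control and CpG-C libraries, 15 or 16 in the CpG-A libraries and 13 to 16 in the CpG-B libraries. Their summed level was 15120 to 24901 FPKM in control, 32602 to 38415 with CpG-A, 6483 to 22971 with CpG-B and 28791 to 39164 with CpG-C. Most of it came from Ly6d, Ly6c2 and Klk1. The log2 estimate against control was above 0 for 9 and below for 7 with CpG-A (median 0.15), and for 10 and 6 with CpG-C (median 0.25). None was called with either (adjusted p below 0.05 in the limma test described below), beside 1.47% and 1.86% of all genes tested. With CpG-B the estimate was below 0 for 15 of the 16, and 7 were called lower, beside 289 of all 11641 genes tested. In the CpG-B libraries Siglech stood at 103.8 to 253.0 FPKM against 2144 to 3241 in control. Bst2 overlapped control, at 184 to 497 against 170 to 563, and Ly6d reached higher values, 3263 to 14679 against 1445 to 7213. The 8 natural killer cell markers summed to 1139 to 5554 FPKM with CpG-B, against 647 to 1145 in control, 628 to 663 with CpG-A and 378 to 620 with CpG-C. Most of the CpG-B sum came from Gzma, at 318 to 4002 FPKM, and Nkg7, at 443 to 1146 FPKM. For the 8 monocyte and macrophage markers in the table the sum was 704 to 1115 FPKM in control, where Ccr2 and Cd68 were at 1 FPKM or more, and 177 to 623 in the treated libraries. Of that list, Csf1r and Adgre1 reached at most 0.26 and 0.01 FPKM. The other lists were mixed. The 8 T cell markers summed to 150 to 206 FPKM in control, 169 to 238 with CpG-A, 277 to 411 with CpG-B and 279 to 338 with CpG-C, with Cd3e at most 0.34 but Cd8a at 40.2 to 308 and Cd4 at up to 224. The 9 conventional dendritic cell markers summed to 434 to 667 FPKM in control, 270 to 445 with CpG-A, 255 to 694 with CpG-B and 148 to 378 with CpG-C. Among these Zbtb46 was at most 0.18 FPKM and Clec9a reached 130. Cd209a stood at 182 to 468 in control and at most 11.4 in the treated libraries. Id2 went the other way, at 1.90 to 47.6 in control and 62.4 to 452 in the treated libraries. With CpG-B 2 of the 7 tested were called higher, Id2 and Batf3, and 2 lower, Cd209a and Sirpa, beside 5.75% of all genes called. The 9 B cell and plasma cell markers summed to 117 to 238 FPKM in control, 28.9 to 76.04 with CpG-A, 39.1 to 100.3 with CpG-B and 67.9 to 233 with CpG-C, with Ebf1 at most 0.04 and Cd79b at 15.3 to 163. The 6 progenitor markers summed to 199 to 2222 FPKM in control and 4636 to 11850 in the treated libraries, nearly all of it from Ly6a, with Cd34 at most 0.92. With CpG-B the estimate against control was above 0 for 7 of the 8 natural killer cell markers (median 3.05). Of the 8, Ncr1, Klrk1 and Prf1 were called higher and none lower, beside 5.75% of all genes called. Ncr1 was also called higher with CpG-A and with CpG-C, and Klrd1 lower with CpG-C, beside 1.47% and 1.86% of all genes. Single markers differed in direction. Ncr1 was at most 0.06 FPKM in control and 5.12 to 89.3 in the treated libraries, and Klrk1 was 44.9 to 69.6 and 116 to 322. Klrd1 was 327 to 724 FPKM in control and lower, 20.8 to 242, in the treated libraries. The part of these marker shifts in the results on oxidation genes was not tested. Between 7437 and 10622 genes reached 1 FPKM in a library, and the libraries numbered 1 had the lowest count in the control, CpG-A and CpG-C groups. A rough depth fitted to the low values was 23000000 to 27600000 fragments per library.

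The clearest changes were in 4 genes. With limma on log2(FPKM + 1) and Benjamini-Hochberg adjustment over 11641 genes, Eci1 and Acox3 fell with CpG-A, Acox3 and Acaa2 fell and Acsl5 rose with CpG-B, and Acaa2 fell with CpG-C. Thus 2 of 30 tested genes were called with CpG-A, where 1.47% of all genes tested were called. With CpG-B 3 of 30 were called, against 5.75% of all genes, and with CpG-C 1 of 30, against 1.86%. Between classes, Eci1 and Acsl5 were lower with CpG-A than with CpG-B, 2 of 30 where 2.43% of all genes were called. None of the 30 was called between CpG-A and CpG-C, where 0% of all genes were called and 4.01% had an unadjusted p below 0.05, nor between CpG-B and CpG-C, where 1.35% of all genes were called. The unadjusted p was below 0.05 for 4 of the 30 between CpG-A and CpG-C and for 7 between CpG-B and CpG-C, beside 11.8% of all genes in the latter. A test of any difference among the 4 groups called 3 of 30, Eci1, Acox3 and Acaa2, against 4.71% of all genes. With a pseudocount of 0.1 in place of 1, only Acox3 and Acaa2 with CpG-B stayed called and the other calls of the 6 comparisons were lost (adjusted p 0.0544 to 0.0938), and with no filter on low values only Acox3 with CpG-B stayed called. Without the 4 libraries numbered 1, the calls for Eci1 with CpG-A (adjusted p = 0.0308) and for Acox3, Acaa2 and Acsl5 with CpG-B (adjusted p 0.0292 to 0.0459) held, as did both calls between CpG-A and CpG-B. In these bulk libraries, fewer cells of a type and less RNA per cell cannot be told apart.

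Most of the 30 genes lay below control without passing the test. The estimate was below 0 for 23 with CpG-A, 22 with CpG-B and 23 with CpG-C, or 76.7%, 73.3% and 76.7%, beside 60.8%, 58.9% and 59.6% of all genes tested. The 3 comparisons share the control libraries. The median log2 difference from control over the 30 genes was -0.70 with CpG-A, -0.73 with CpG-B and -0.79 with CpG-C, beside -0.27, -0.25 and -0.22 over all genes tested. Median-of-ratios scaling moved the median of all genes to -0.11, -0.00 and -0.08, and the 30 genes then stood at -0.49, -0.46 and -0.63. Relative to the median of all genes, they were lower by 0.43, 0.48 and 0.57 as deposited and by 0.37, 0.46 and 0.54 after that scaling. The size of this gap rested in part on single libraries and settings. With CpG-A it ran from -0.72 without control replicate 3 to -0.16 without CpG-A replicate 3, with CpG-B from -0.79 with a pseudocount of 0.01 to -0.27 without control replicate 2, and with CpG-C from -0.78 with no filter to -0.43 without CpG-C replicate 1. With CpG-A 7 genes lay wholly below control and 1 wholly above, where 11% and 5.78% of all genes tested did. With CpG-B the counts were 8 below and 1 above, against 15.6% and 10.1% of all genes, and with CpG-C 9 below and 0 above, against 11.2% and 6.64%.

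**Figure D1:**
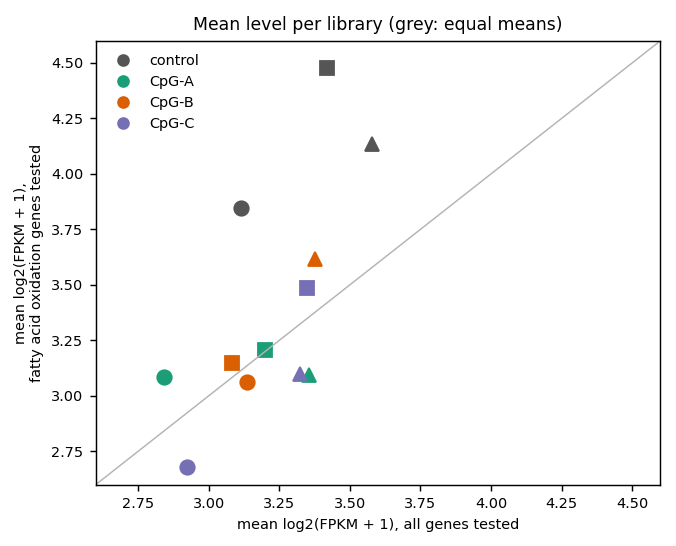
Mean log2(FPKM + 1) of the 30 tested fatty acid oxidation genes (vertical axis) against that of all 11641 tested genes (horizontal axis), 1 point per library; circle, square and triangle are replicates 1, 2 and 3, and the grey line marks equal means. The control points sit between 3.85 and 4.48 on the vertical axis, above all treated points, which lie between 2.68 and 3.62.

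The mean level of the 30 genes in each library was 3.85, 4.48 and 4.14 on the log2(FPKM + 1) scale in control and 2.68 to 3.62 in the 9 treated libraries, with no overlap. Over all genes tested the library means were 3.11 to 3.58 in control and 2.84 to 3.38 in the treated libraries, which overlapped. The summed FPKM of the 32 genes, to which abundant genes add most, also overlapped. It was 857 to 1099 in control and 564 to 1004 in the treated libraries. At 10 FPKM or more stood 17, 22 and 20 of the 32 genes in control replicates 1, 2 and 3, and 10 to 16 in the treated libraries. Of the 30 tested genes these were 56.7%, 73.3% and 66.7% in control and 33.3% to 53.3% in the treated libraries, beside 43.96%, 48.02% and 49.7% of all genes tested in control and 40.3% to 45.6% in the treated libraries.

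**Figure D2:**
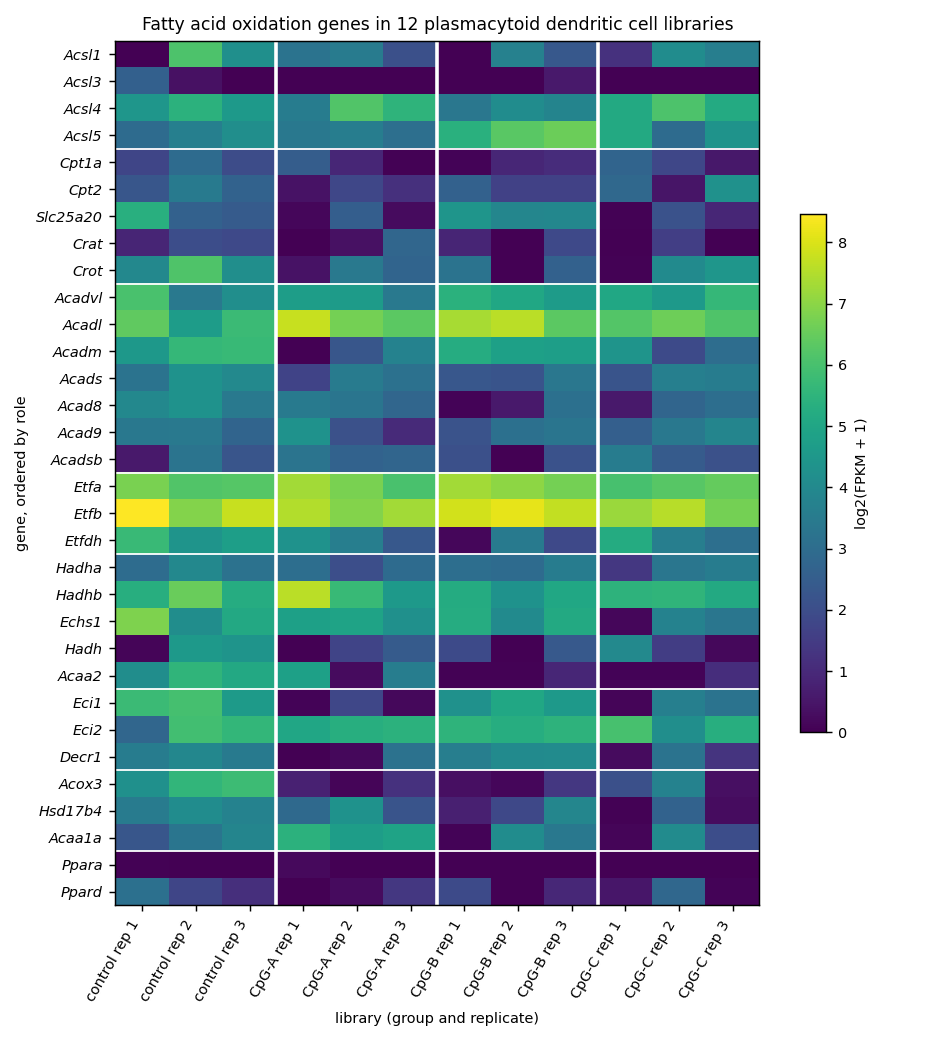
Level of each of the 32 genes, in log2(FPKM + 1) by colour, in the 12 libraries (columns), with genes in rows by role; white lines separate groups and roles. The electron transfer genes Etfa and Etfb were bright in every library, Ppara was dark in every library, and many other rows changed colour between replicates of 1 group.

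The spread between replicates was close to that of genes at large. The median standard deviation within groups was 1.06 on the log2 scale for the 30 genes and 1.01 for all genes tested. Of the 30, 20 spanned at least 10-fold between replicates of a group, or 66.7%, beside 66.6% of all genes tested. Below, the values for a gene are given in the order of replicates 1, 2 and 3.

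The promoters of 4 genes are shown so that their start regions can be compared: 3 called genes, of which Acox3 and Eci1 fell and Acsl5 rose, and Acadm, which was called in no comparison and differed most with CpG-A among the genes that missed the threshold. The promoter of Acaa2 is not shown. Each is 300 bases, 250 before to 50 after the RefSeq start on GRCm38.p6, written 5′ to 3′ along the gene, with capitals on motif matches. Acox3 lies at chr5:35582784-35583083 on the plus strand, Eci1 at chr17:24426433-24426732 on the plus strand, Acsl5 at chr19:55253119-55253418 on the plus strand and Acadm at chr3:153944594-153944893 on the minus strand. For Acsl5 the window lies within the gene as the deposited table places it.
Acox3: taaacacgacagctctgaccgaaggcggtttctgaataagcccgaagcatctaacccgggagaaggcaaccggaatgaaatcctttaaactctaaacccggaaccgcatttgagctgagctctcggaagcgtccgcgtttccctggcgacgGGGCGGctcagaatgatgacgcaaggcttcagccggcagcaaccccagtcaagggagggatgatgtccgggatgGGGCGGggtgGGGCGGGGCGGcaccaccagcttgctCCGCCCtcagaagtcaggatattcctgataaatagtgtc
Eci1: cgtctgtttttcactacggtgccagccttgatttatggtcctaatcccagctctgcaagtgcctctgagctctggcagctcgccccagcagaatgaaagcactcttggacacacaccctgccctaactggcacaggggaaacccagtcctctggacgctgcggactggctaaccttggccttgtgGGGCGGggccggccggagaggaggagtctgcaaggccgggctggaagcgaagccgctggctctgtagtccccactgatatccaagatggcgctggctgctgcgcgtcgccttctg
Acsl5: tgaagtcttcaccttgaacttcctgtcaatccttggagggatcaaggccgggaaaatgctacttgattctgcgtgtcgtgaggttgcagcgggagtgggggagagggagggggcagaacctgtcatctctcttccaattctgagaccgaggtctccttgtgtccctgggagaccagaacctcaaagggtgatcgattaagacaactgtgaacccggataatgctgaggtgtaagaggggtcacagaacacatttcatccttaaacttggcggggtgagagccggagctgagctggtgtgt
Acadm: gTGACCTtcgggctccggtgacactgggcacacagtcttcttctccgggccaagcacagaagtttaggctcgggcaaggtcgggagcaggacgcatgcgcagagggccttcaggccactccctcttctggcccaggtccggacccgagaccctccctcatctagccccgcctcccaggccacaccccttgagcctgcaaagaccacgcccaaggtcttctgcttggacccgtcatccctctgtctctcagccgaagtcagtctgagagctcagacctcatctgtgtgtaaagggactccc

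The capitals mark the GC box GGGCGG or its reverse CCGCCC, the letters bound by Sp factors, in Acox3 and Eci1, and the nuclear receptor half-site AGGTCA, here as TGACCT, in Acadm. These and the motifs named next were searched on both strands of the 28 promoters listed for 27 of the 32 genes and of all 32851 promoters in the RefSeq table. All 32851 promoters were taken whether or not their genes were expressed here, so the shares are not matched for expression. The GC box was in 23 of the 28 promoters and in 35.7% of all. The half-site was in 4 of the 28, those of Acadm, Acadvl, Cpt1a and Echs1, and in 16.3% of all; every direct repeat counted next also holds it. The direct repeat of 2 AGGTCA half-sites with any 1 base between them, the form PPAR receptors bind, was in 0 of the 28 and in 0.0396% of all. An interferon-stimulated response element, searched as GAAA, any 2 bases and GAAA, was in 0 of the 28 and in 3.44% of all, and an NF-kB site, searched as GGGA, any 1 base and TTTCC, in 0 of the 28 and in 0.411% of all. Between the 4 promoters printed, Acox3 held 5 GC boxes, Eci1 held 1 and the others none.

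Acyl-CoA synthetases activate fatty acids. Acsl5, a long-chain synthetase of mitochondria and the endoplasmic reticulum at chromosome 19, 55253065 to 55296631 (mm10, plus strand), was the gene that rose. It stood at 6.74, 11.7 and 17.3 FPKM in control, 9.48, 10.9 and 7.47 with CpG-A, 40.3, 77.4 and 94.8 with CpG-B, and 34.2, 6.72 and 19.2 with CpG-C. All CpG-B libraries lay above all control and all CpG-A libraries, and CpG-C overlapped control. The mean was 70.8 ± 27.9 FPKM with CpG-B and 11.9 ± 5.26 in control (SD, n = 3 each). Acsl5 rose with CpG-B by 2.48 on the log2(FPKM + 1) scale (SE 0.660; limma adjusted p = 0.0389), and was lower with CpG-A than with CpG-B by 2.73 (log2 difference -2.73, SE 0.660; adjusted p = 0.0433). That scale understates the change of genes with low values. Between CpG-B and CpG-C the difference was 1.94 (95% interval 0.53 to 3.35; adjusted p = 0.216). The call against control was lost without any 1 of the CpG-B or control libraries or CpG-C replicate 3 (adjusted p 0.0540 to 0.155). The call against CpG-A was lost without any 1 of the CpG-A or CpG-B libraries, CpG-C replicate 3 or control replicate 2 or 3 (adjusted p 0.0539 to 0.168). Acsl5 overlaps Zdhhc6 on the other strand by 7076 bases, and whether the counting used strand is not given in the sources used here. Zdhhc6 stood at 24.5, 40.6 and 32.5 FPKM with CpG-B and at 31.6, 16.3 and 7.03 in control, and its part in the Acsl5 result was not tested.

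Acsl1, the main long-chain synthetase of oxidative tissues, varied widely among replicates. It stood at 0.01, 67.9 and 17.8 FPKM in control, 8.44, 10.6 and 3.18 with CpG-A, 0.02, 12.2 and 4 with CpG-B, and 1.33, 16.2 and 11.3 with CpG-C. Its groups overlapped in every comparison, and each difference from control had an interval spanning 0 (adjusted p 0.637 to 0.936). Acsl4, which prefers arachidonate, ranged from 9.19 to 70.7 FPKM and was not called in any comparison. Its CpG-B libraries, at 9.19 to 16.5 FPKM, lay below all control and all CpG-C libraries (log2 difference from control -1.05, adjusted p = 0.437). The deposited table gives no strand for Acsl4. Acsl3 was above 1 FPKM in 1 library only, control replicate 1, at 5.07 FPKM.

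None of the 5 genes of the carnitine shuttle and its transferases was called. Their estimates against control lay below 0 for 5 of 5 with CpG-A and with CpG-C and for 4 of 5 with CpG-B, with medians of -1.68, -1.05 and -0.83 on the log2 scale. Cpt1a, the rate-limiting transferase of the outer mitochondrial membrane, stood at 2.40, 6.71 and 2.89 FPKM in control, 4.68, 0.90 and 0.03 with CpG-A, 0.06, 0.89 and 1.10 with CpG-B, and 5.67, 2.47 and 0.47 with CpG-C. Every CpG-B library lay below every control library (log2 difference -1.53, 95% interval -3.31 to 0.25), without passing the test (adjusted p = 0.352). Of the other carnitine palmitoyltransferases of this kind, Cpt1b reached at most 3.98 FPKM, in control replicate 3, where Cpt1a was at 2.89, and Cpt1c at most 0.03 FPKM. Cpt2, the transferase of the inner membrane, stood at 3.81, 10.3 and 5.28 FPKM in control, 0.33, 2.49 and 1.25 with CpG-A, 5.23, 2.09 and 2.13 with CpG-B, and 6.30, 0.38 and 18.7 with CpG-C. All CpG-A libraries lay below all control libraries and the other groups overlapped, with no call (adjusted p at least 0.486). A row for Actg1, with no strand given, overlaps the whole of Cpt2, 19763 bases, in the deposited table. Its mean over the 12 libraries was 625 FPKM beside 4.86 for Cpt2, and its part in the Cpt2 values was not tested.

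Slc25a20, the translocase that carries acylcarnitine across the inner membrane, stood at 39.4, 5.23 and 4.41 FPKM in control, 0.11, 4.80 and 0.20 with CpG-A, 20.3, 13.8 and 14.2 with CpG-B, and 0.03, 3.37 and 0.86 with CpG-C. Each CpG-B library lay above each CpG-A and CpG-C library, while control replicate 1 was far above control replicates 2 and 3, and CpG-A and CpG-B overlapped control. The CpG-C libraries lay below all control libraries. Its mean was 16.1 FPKM with CpG-B and 16.4 in control. Against control the log2 difference was -2.49 with CpG-A (95% interval -4.60 to -0.37, adjusted p = 0.302). It was 0.60 with CpG-B (adjusted p = 0.805) and -2.45 with CpG-C (-4.56 to -0.33, adjusted p = 0.304), none of them called. The log2 difference was -3.09 for CpG-A against CpG-B (95% interval -5.21 to -0.98; adjusted p = 0.136) and 3.05 for CpG-B against CpG-C (0.94 to 5.17; adjusted p = 0.190), and neither passed the test. The second was called where libraries were weighted by their estimated quality (adjusted p = 0.0456).

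Crat and Crot, the transferases for short and medium chains, did not pass the test either. Crat, carnitine acetyltransferase, stood at 0.82, 2.98 and 2.63 FPKM in control, 0.01, 0.29 and 5.92 with CpG-A, 0.82, 0.01 and 2.63 with CpG-B, and 0, 1.96 and 0.01 with CpG-C. All its groups overlapped. Crot, the peroxisomal octanoyltransferase, stood at 14.3, 69.1 and 16.99 FPKM in control, 0.32, 9.71 and 5.69 with CpG-A, 8.41, 0.01 and 5.19 with CpG-B, and 0.03, 15.6 and 20.7 with CpG-C. With CpG-A and with CpG-B all libraries lay below all control libraries, and the log2 differences of -2.56 and -2.79 did not pass the test (adjusted p = 0.411 and 0.248).

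**Figure D3:**
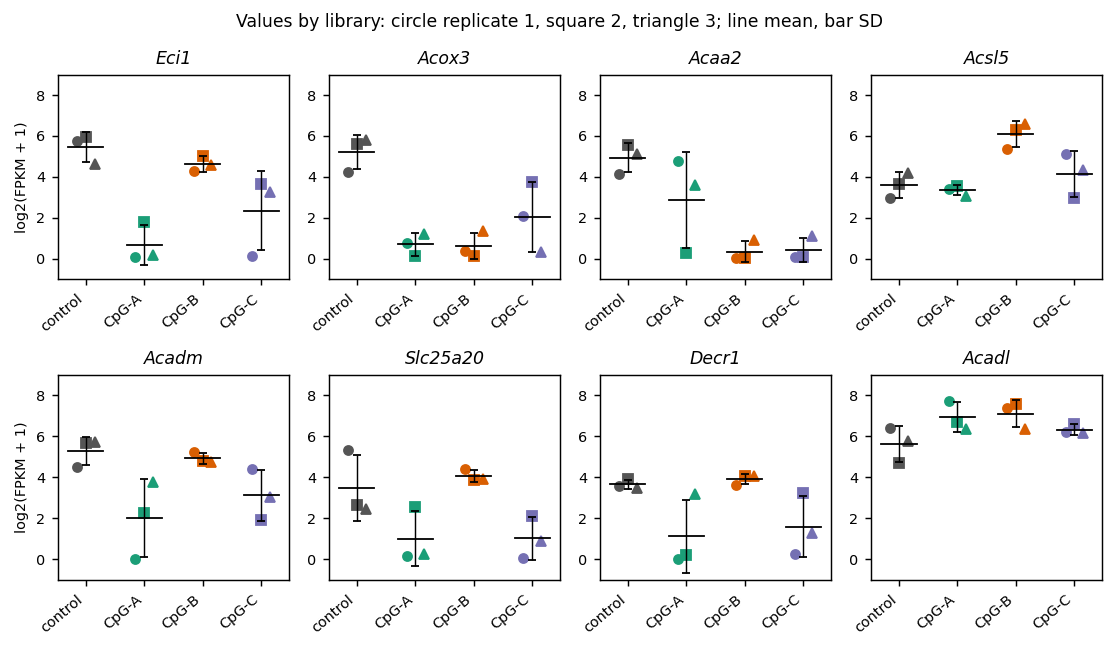
Level in log2(FPKM + 1) of 8 genes in each library of control, CpG-A, CpG-B and CpG-C; circle, square and triangle are replicates 1, 2 and 3, the line is the group mean and the bar its SD. Acox3 has every treated point below every control point, and Acsl5 has its highest points with CpG-B.

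Acyl-CoA dehydrogenases carry out the oxidation that opens each cycle, each for a range of chain lengths. Acadm, the medium-chain enzyme, stood at 21.8, 49.3 and 50.9 FPKM in control, 0, 3.80 and 12.4 with CpG-A, 36.9, 26.9 and 26.04 with CpG-B, and 19.9, 2.71 and 7.23 with CpG-C. The CpG-A libraries all lay below control, as did the CpG-C libraries, and the CpG-B libraries lay above every CpG-A and CpG-C library. Its mean was 40.6 ± 16.4 FPKM in control, 5.41 ± 6.37 with CpG-A, 29.9 ± 6.02 with CpG-B and 9.94 ± 8.91 with CpG-C (SD, n = 3 each). The log2 difference of CpG-A from control was -3.28 (SE 0.899; adjusted p = 0.0945) and that from CpG-B was -2.93 (adjusted p = 0.117), so neither passed. Without CpG-A replicate 3 the difference from control was called (adjusted p = 0.0381).

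Acadl, the long-chain enzyme, had the highest level of the dehydrogenases, and its estimates lay above control. It stood at 84.2, 24.9 and 54.2 FPKM in control, 213, 104 and 79.9 with CpG-A, 165, 193 and 80.3 with CpG-B, and 72.9, 96.7 and 69.3 with CpG-C. Control replicate 2 was the lowest library and CpG-A replicate 1 the highest, and all groups overlapped control. The estimates were 1.30 with CpG-A (adjusted p = 0.312), 1.47 with CpG-B (adjusted p = 0.133) and 0.69 with CpG-C (adjusted p = 0.634), none of them called.

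Acadvl, the very-long-chain enzyme of the inner membrane, stood at 64.6, 9.65 and 17.1 FPKM in control, 25.4, 23.9 and 9.83 with CpG-A, 41.7, 31.96 and 24.2 with CpG-B, and 31.7, 22.5 and 48.98 with CpG-C. No group lay apart from control, and the intervals of its differences from control ran from -1.73 to 1.98 in all. The remaining dehydrogenases were Acads for short chains (2.25 to 19.1 FPKM), Acad9, also an assembly factor of respiratory complex I (1.00 to 18.8 FPKM), and Acad8 and Acadsb, which serve valine and isoleucine breakdown (0.07 to 18.8 and 0.01 to 10.7 FPKM). None was called in any comparison, and Acad8 had the estimate farthest from 0 among them, -2.62 with CpG-B against control (adjusted p = 0.135).

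The electron transfer genes Etfa and Etfb were the steadiest of the abundant members. Etfb, the beta subunit of the electron transfer flavoprotein, had the highest mean of the 32 genes, 192 FPKM over the 12 libraries, and stood at 354, 118 and 216 FPKM in control, 179, 118 and 155 with CpG-A, 237, 282 and 206 with CpG-B, and 146, 189.7 and 104 with CpG-C. Etfa, the alpha subunit, stood at 109, 71.1 and 74.04 FPKM in control, 156, 108 and 64.9 with CpG-A, 156, 129 and 104 with CpG-B, and 63.3, 75.3 and 88.1 with CpG-C. For both, every group overlapped control, and the intervals of all differences from control lay between -1.44 and 1.5. CpG-B libraries were above all CpG-C libraries for both subunits, with log2 differences of 0.76 for Etfa and 0.75 for Etfb that did not pass the test (adjusted p = 0.531 and 0.544).

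Etfdh, the oxidoreductase that hands these electrons to ubiquinone, was not called in any comparison. It stood at 52.6, 19.96 and 25.8 FPKM in control, 19.2, 11.3 and 3.98 with CpG-A, 0.10, 10.3 and 2.63 with CpG-B, and 36.2, 11.3 and 7.52 with CpG-C. All CpG-A and all CpG-B libraries lay below all control libraries, and CpG-C overlapped control. The log2 difference of CpG-B from control was -3.13 (SE 0.917; adjusted p = 0.0617); it was called with library weights (adjusted p = 0.0307) and without CpG-B replicate 2 (adjusted p = 0.0340). Etfdh overlaps Ppid on the other strand by 4977 bases; Ppid stood at 152.0, 49.9 and 82.7 FPKM with CpG-B and 45.9, 107.8 and 57.4 in control.

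Hadha and Hadhb encode the subunits of the mitochondrial trifunctional protein, which handles long chains, and start 273 bases apart on opposite strands. Hadhb, with the thiolase, stood at 38.4, 92.7 and 36.6 FPKM in control, 194, 51.2 and 22.8 with CpG-A, 35.9, 18.9 and 32.3 with CpG-B, and 43.2, 45.6 and 34.2 with CpG-C. Hadha, with the hydratase and dehydrogenase, stood at 6.93, 14.4 and 8.09 FPKM in control, 7.32, 3.10 and 6.82 with CpG-A, 7.36, 6.75 and 10.9 with CpG-B, and 1.59, 8.95 and 10.6 with CpG-C. Hadhb was above Hadha in every library. CpG-B lay wholly below control for Hadhb (log2 difference -0.84, adjusted p = 0.556), the other groups overlapped control for both genes, and neither gene was called.

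Echs1, the short-chain hydratase, stood at 114, 16.96 and 33.9 FPKM in control, 27.1, 29.2 and 17.9 with CpG-A, 36.9, 15.7 and 34.6 with CpG-B, and 0.12, 12.6 and 8.98 with CpG-C. The CpG-C libraries lay below all libraries of the other groups. The log2 difference of CpG-C was -2.96 from control (adjusted p = 0.135), and CpG-A and CpG-B lay above CpG-C by 2.24 and 2.40 (adjusted p = 1.0 and 0.271), none of which passed. Hadh, the short-chain hydroxyacyl dehydrogenase, ranged from 0 to 22.3 FPKM, with 0.08 in control replicate 1 beside 22.3 and 20.03 in replicates 2 and 3, and was not called.

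Acaa2, the mitochondrial thiolase that ends the cycle, fell with CpG-B and CpG-C. It lies at chromosome 18, 74779212 to 74806207 (mm10, plus strand) and stood at 16.7, 45.9 and 33.4 FPKM in control, 26.9, 0.20 and 11.03 with CpG-A, 0.03, 0.03 and 0.90 with CpG-B, and 0.06, 0.06 and 1.18 with CpG-C. Every CpG-B and CpG-C library was at 1.18 FPKM or below, every control library was at 16.7 or above, and the CpG-A libraries spanned both ranges. The mean was 32.01 ± 14.7 FPKM in control, 0.32 ± 0.50 with CpG-B and 0.43 ± 0.65 with CpG-C (SD, n = 3 each). Acaa2 fell with CpG-B (log2(FPKM + 1) difference -4.597, SE 1.04; adjusted p = 0.0155) and with CpG-C (-4.503, SE 1.04; adjusted p = 0.0384). With CpG-A the difference from control was -2.05 (95% interval -4.26 to 0.16; adjusted p = 0.426), and CpG-A was 2.55 above CpG-B and 2.45 above CpG-C (adjusted p = 0.274 and 1.0), so a difference between classes was not shown. Leaving out replicate 1 or 2 of CpG-B, or 2 or 3 of control, ended the CpG-B call (adjusted p 0.0502 to 0.0660). The CpG-C call held only without 1 of the CpG-A libraries, and was lost without any 1 of the other 9 libraries (adjusted p 0.0518 to 0.129) and without the 4 libraries numbered 1 (adjusted p = 0.0760).

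Auxiliary enzymes let chains with double bonds enter the cycle. Eci1, the mitochondrial enoyl-CoA isomerase, fell with CpG-A. The gene lies at chromosome 17, 24426683 to 24439316 (mm10, plus strand) and stood at 53.7, 61.4 and 23.4 FPKM in control, 0.05, 2.48 and 0.13 with CpG-A, 18.4, 31.9 and 23.1 with CpG-B, and 0.09, 11.6 and 8.43 with CpG-C. All CpG-A and all CpG-C libraries lay below all control and all CpG-B libraries, and CpG-B overlapped control. Mean levels were 46.2 ± 20.1 FPKM in control, 0.89 ± 1.38 with CpG-A, 24.5 ± 6.85 with CpG-B and 6.72 ± 5.96 with CpG-C (SD, n = 3 each). Eci1 fell by 4.77 on the log2(FPKM + 1) scale with CpG-A (SE 0.927; adjusted p = 0.0133). It was also lower with CpG-A than with CpG-B (log2 difference -3.96, SE 0.927; adjusted p = 0.0367). With CpG-C the difference from control was -3.11 (95% interval -5.09 to -1.13; adjusted p = 0.124), and between CpG-A and CpG-C it was -1.66 (-3.64 to 0.32; adjusted p = 1.0). The call against control ended on leaving out replicate 1 or 3 of CpG-A, or 1 or 2 of control (adjusted p 0.0536 to 0.0775). The call against CpG-B ended on leaving out any 1 of the CpG-B libraries, replicate 1 or 3 of CpG-A, or 2 of control (adjusted p 0.0544 to 0.124).

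Decr1, the mitochondrial dienoyl-CoA reductase, stood at 10.9, 14.03 and 9.92 FPKM in control, 0, 0.14 and 8.06 with CpG-A, 11.3, 15.7 and 15.8 with CpG-B, and 0.19, 8.25 and 1.44 with CpG-C. The CpG-A and CpG-C libraries lay below all control and all CpG-B libraries. The log2 difference from control was -2.52 with CpG-A (adjusted p = 0.288), 0.27 with CpG-B (adjusted p = 0.919) and -2.06 with CpG-C (adjusted p = 0.406), none of them called. Eci2, an isomerase of mitochondria and peroxisomes, stood at 6.02, 59.01 and 47.9 FPKM in control, 30.97, 38.3 and 42.6 with CpG-A, 44.6, 37.8 and 43.1 with CpG-B, and 63.1, 17.3 and 38.8 with CpG-C. Control replicate 1 was its lowest library, and all groups overlapped, with intervals of the differences from control between -1.15 and 2.19.

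Over the 30 genes, 6 lay wholly lower with CpG-A than with CpG-B and 2 wholly higher, where 10.2% and 9.49% of all genes tested did. CpG-B lay wholly above CpG-C for 8 and below for 1, where 9.2% and 9.18% of all genes did. CpG-A lay wholly above CpG-C for 2 and below for 0, against 2.99% and 4.1%.

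**Figure D4:**
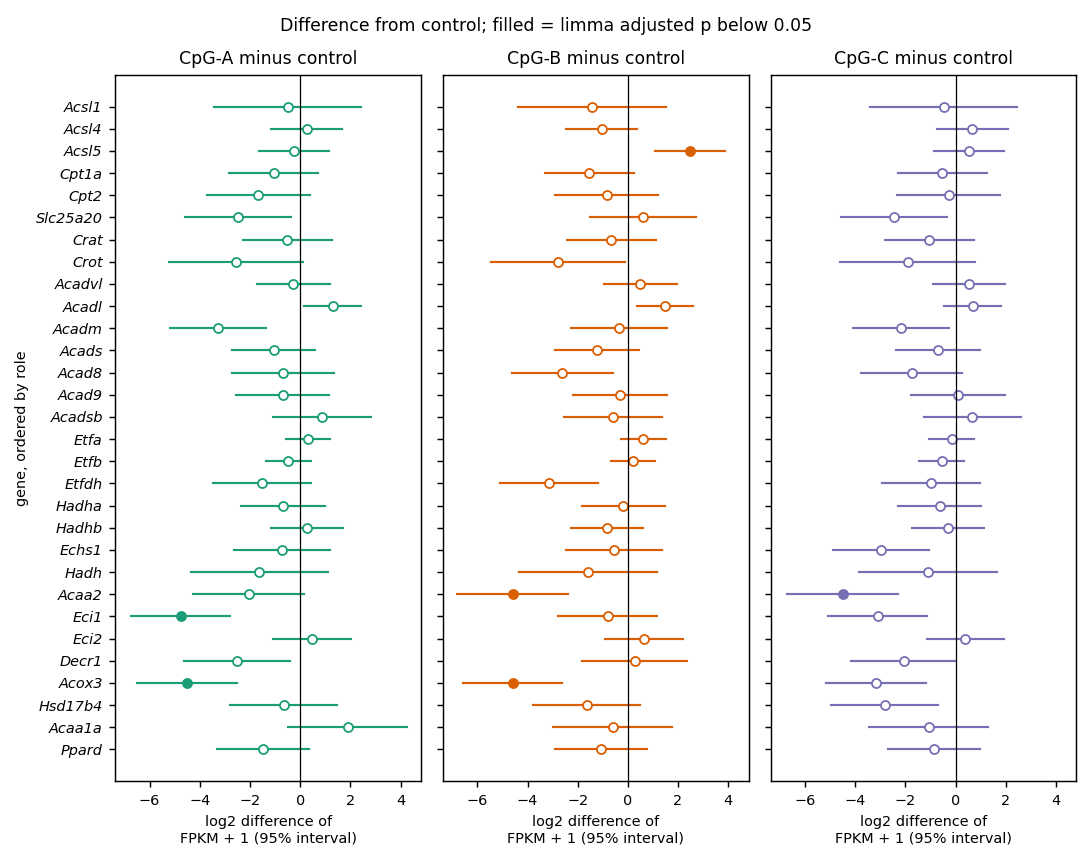
Difference of each CpG class from control on the log2(FPKM + 1) scale (horizontal axes) for the 30 tested genes (vertical axis, by role); points are limma estimates, bars are 95% intervals, and filled points have an adjusted p below 0.05. Filled points are Eci1 and Acox3 with CpG-A, Acsl5, Acaa2 and Acox3 with CpG-B, and Acaa2 with CpG-C.

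Among the peroxisomal genes, Acox3 fell with CpG-A and CpG-B. Acox3, an acyl-CoA oxidase for branched chains at chromosome 5, 35583047 to 35631373 (mm10, plus strand), stood at 18.2, 47.2 and 54.6 FPKM in control, 0.72, 0.09 and 1.31 with CpG-A, 0.28, 0.10 and 1.58 with CpG-B, and 3.22, 12.5 and 0.27 with CpG-C. Every treated library, at most 12.5 FPKM, lay below every control library, at least 18.2 FPKM. Group means were 39.96 ± 19.3 FPKM in control, 0.71 ± 0.61 with CpG-A, 0.65 ± 0.81 with CpG-B and 5.34 ± 6.39 with CpG-C (SD, n = 3 each). Acox3 fell with CpG-A (log2(FPKM + 1) difference -4.51, SE 0.932; adjusted p = 0.0210) and with CpG-B (-4.59, SE 0.932; adjusted p = 0.00772). With CpG-C the difference of -3.16 did not pass (95% interval -5.14 to -1.17; adjusted p = 0.118), though it did with library weights (adjusted p = 0.0264). No difference between classes passed the test, with intervals from -1.90 to 2.07 for CpG-A against CpG-B, -3.34 to 0.63 for CpG-A against CpG-C and -3.43 to 0.55 for CpG-B against CpG-C. The CpG-B call held without each library in turn (highest adjusted p 0.0429). The CpG-A call ended on leaving out replicate 1 or 2 of CpG-A, or 2 or 3 of control (adjusted p 0.0609 to 0.0837), and without the 4 libraries numbered 1 (adjusted p = 0.0788).

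Acaa1a, a peroxisomal thiolase, had its highest levels with CpG-A. It stood at 3.76, 8.81 and 13.5 FPKM in control, 42.5, 25.5 and 28.9 with CpG-A, 0.05, 16.4 and 9.47 with CpG-B, and 0.09, 15.97 and 2.97 with CpG-C. All CpG-A libraries lay above all libraries of the other groups. The log2 difference was 1.89 from control (adjusted p = 0.500), 2.499 from CpG-B (adjusted p = 0.326) and 2.96 from CpG-C (adjusted p = 1.0), and none passed. Acaa1b, a near-identical copy listed at 0.02 to 10.1 FPKM, may share its reads, so the level of Acaa1a is uncertain. Hsd17b4, the peroxisomal bifunctional enzyme, ranged from 0.03 to 19.0 FPKM; CpG-C lay wholly below control (log2 difference -2.82, adjusted p = 0.219).

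The PPAR receptors, which switch on oxidation genes when fatty acids bind them, were scarce. Ppara, the form that drives these genes in liver, was listed at 0.04, 0 and 0 FPKM in control, 0.17, 0 and 0 with CpG-A, 0.01, 0 and 0 with CpG-B, and 0.01, 0 and 0 with CpG-C. Ppard, the widely expressed form, stood at 7.67, 2.40 and 1.22 FPKM in control, 0, 0.19 and 1.59 with CpG-A, 2.74, 0 and 0.91 with CpG-B, and 0.44, 6.05 and 0.06 with CpG-C. Ppara thus never reached 1 FPKM in a library, and Ppard was not called in any comparison (adjusted p at least 0.499 against control). Of the coactivators that work with them, Ppargc1a was at most 3.01 FPKM and Ppargc1b at most 0.03 FPKM in a library.

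Lists of related genes gave few calls. Of 34 other fatty acid oxidation genes in the table, 23 were tested, and 1, Ech1, a dienoyl-CoA isomerase, fell with CpG-B, where 5.75% of all genes tested were called. It stood at 1083, 485 and 572 FPKM in control, 464, 326 and 383 with CpG-A, 139, 87.8 and 113 with CpG-B, and 311, 206 and 238 with CpG-C. The change with CpG-B was -2.58 (SE 0.366; adjusted p = 0.000595), and Ech1 was 1.79 higher with CpG-A than with CpG-B (SE 0.366; adjusted p = 0.0182). Every treated library lay below every control library for this gene. Hsd17b10, a mitochondrial hydroxyacyl dehydrogenase, was lower with CpG-A than with CpG-B (32.7 ± 37.2 against 224 ± 54.1 FPKM, log2 difference -3.36, adjusted p = 0.0132), so that 2 of the 23 were called between these classes, where 2.43% of all genes were.

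In the other lists, Oxct1, which lets cells use ketone bodies, fell with CpG-C as 1 of 4 ketone body genes tested, where 1.86% of all genes tested were called. Its mean was 29.6 ± 11.8 FPKM in control and 2.34 ± 1.88 with CpG-C (log2 difference -3.36, adjusted p = 0.0258). Among 16 tested genes of fatty acid synthesis and desaturation, Me1, a malic enzyme that makes NADPH, was higher with CpG-B (adjusted p = 0.0358), being listed at 0 in all control libraries and at 1.68, 9.69 and 3.79 FPKM with CpG-B, or 1 of 16 beside 5.75% of all genes. Hacd3, a dehydratase of chain elongation, was lower with CpG-A than with CpG-B (2.22 ± 3.79 against 27.6 ± 4.53 FPKM, log2 difference -3.82, adjusted p = 0.0490), or 1 of 16 beside 2.43%. None of the 19 tested genes of lipid uptake, storage and lipolysis, 17 of the tricarboxylic acid cycle or 20 other regulators was called in any comparison. The median log2 difference from control of those 20 regulators was -0.97, -1.11 and -0.78 with CpG-A, CpG-B and CpG-C, beside -0.27, -0.25 and -0.22 for all genes tested. In the same order it was -0.63, -0.59 and -0.69 for the 23 other fatty acid oxidation genes and -0.40, -0.45 and -0.33 for synthesis and desaturation. For lipid uptake, storage and lipolysis it was 0.13, -0.30 and -0.40. For the tricarboxylic acid cycle it was -0.01, 0.04 and -0.13, and for ketone bodies -0.29, -0.86 and -0.75.

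The deposited comparisons called far more of the 32 genes, as they did of genes at large. In the authors' deposited table, 32 of the 32 genes had a q-value below 0.05 for CpG-A against control, 9 higher and 23 lower. For CpG-B against control the authors' deposited table had 30 such genes, 7 higher and 23 lower, and for CpG-C against control 32, 8 higher and 24 lower. Of the 30 genes tested here, 30, 28 and 30 had a q-value below 0.05 against control with CpG-A, CpG-B and CpG-C in the authors' deposited table. Among all genes tested here with a q-value in the authors' deposited table, the shares were 94.8%, 96% and 94.7%. The test behind those q-values is not given in the sources used here.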

How the data were processed

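RNA of 12 libraries in 4 groups of 3 was measured by sequencing. The deposited table gives FPKM, rounded to 2 decimals, with 1 column per library, and it names no normalization beyond that. The submitters' processing notes give the build as mm10 and name, with no role or order, RSEM 1.2.8, Bowtie2 2.2.5, HISAT, GATK and StringTie. The authors' log2 ratios, p-values and q-values between groups are in the same table, per the file headers, and the q-values were only counted. The deposited longest transcript length entered the rough depth fit alone: 57.0% to 73.9% of the low FPKM values deposited lay within 0.1 fragments of a whole number, too few to recover counts. Of 21574 table lines, 1 broken line was not used.

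Values were tested as log2(FPKM + 1) with limma 3.58.1 in R 4.3.3, with a mean-variance trend, 1 mean per group over all 12 libraries, and genes of at least 1 FPKM in at least 3 libraries. P-values were adjusted by Benjamini-Hochberg over all 11641 genes tested, and a gene was called below 0.05. Degrees of freedom were 8 residual and 6.81 prior. A permutation test of 3 against 3 libraries cannot go below 0.1. The members, lists and named genes were chosen with earlier results of these data known. Members given in every library were those called, the 4 with the smallest p in each comparison with control and the 3 in each comparison of classes, the 5 highest means and 13 core genes. Alternatives were 2 other pseudocounts, no filter or a filter at 5 FPKM, 2 scalings, library weights, a replicate block, each library left out, the 4 libraries numbered 1 left out, and fits on the 2 groups compared. Promoters are from RefSeq on GRCm38.p6, matched by symbol. Intervals cover 95% and the spread between libraries.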

Additional observations from a re-analysis of the deposited data

How the results depend on the processing

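Over 21 gene and comparison pairs and up to 22 settings, no pair changed direction. The pairs were those with the smallest p in each comparison, called ones included, a choice that itself favours a steady direction. Differences of other gene and comparison pairs were not followed over the settings. Of the 176 values for the 8 called pairs, 68 lost the call, and 6 of the 286 values for the other 13 pairs gained one. The number of fatty acid oxidation genes called with CpG-A against control went from 2 to 0 with a pseudocount of 0.1 or 0.01 or with no filter, and to 1, Eci1, without the 4 libraries numbered 1 or in a fit of the 2 groups only. With CpG-B against control it went from 3 to 0 with a pseudocount of 0.01 and to 1, Acox3, with no filter. With CpG-C against control it went from 1 to 0 with a pseudocount of 0.1 or 0.01, no filter or without the libraries numbered 1, and to 2, Acaa2 and Acox3, with library weights. Between CpG-A and CpG-B it went from 2 to 0 with a pseudocount of 0.1 or 0.01 or no filter and to 1, Acsl5, with the 2 groups only. Between CpG-B and CpG-C it went from 0 to 2 with library weights, and between CpG-A and CpG-C it stayed at 0 in all settings. The test of any difference went from 3 to 0 with a pseudocount of 0.1 or 0.01 or no filter, to 6 with library weights and to 1 without the libraries numbered 1. Leaving out each library in turn gave 0 to 2 with CpG-A, 1 to 3 with CpG-B, 0 to 1 with CpG-C, 0 to 2 for CpG-A against CpG-B, 0 for the other pairs of classes and 0 to 4 for any difference. No filter tests more genes and the runs without libraries have fewer samples; otherwise the cause was not tested.

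Calls over all genes moved by more than 1.5 times in these settings. For CpG-A against control, 171 became 102 with no filter, 285 with the replicate block, 110 without the libraries numbered 1 and 95 with the 2 groups only. For CpG-B against control, 669 became 440 with no filter and 1063 with library weights. For CpG-C against control, 217 became 118 with no filter, 406 with library weights and 144 with the 2 groups only. For CpG-A against CpG-B, 283 became 150 with a pseudocount of 0.01, 157 with no filter, 434 with the block, 509 with library weights and 176 with the 2 groups only. For CpG-B against CpG-C, 157 became 90, 92, 276, 587 and 73 in the same settings. For any difference, 548 became 352 with a pseudocount of 0.01, 294 with no filter and 1039 with library weights. Leaving out each library in turn gave 120 to 186 with CpG-A, 343 to 764 with CpG-B, 108 to 239 with CpG-C, 62 to 356 for CpG-A against CpG-B, 0 to 2 for CpG-A against CpG-C, 37 to 166 for CpG-B against CpG-C and 285 to 599 for any difference.

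The replicate number as a block left the counts of fatty acid oxidation genes called at 2, 3 and 1 against control, 2, 0 and 0 between classes and 3 for any difference. The numbers do not pair the libraries by the labels. The deviations of the 18 same-numbered pairs correlated at 0.0607 to 0.170, 11 of them above 0.1, and those of other pairs at 0.0290 at most. Deviations were taken from group means, so positive values for same-numbered pairs in part force low values for the other pairs. Each of the 12 libraries correlated best with its own number, a hint from the data and not from the design.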

Other observations

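Cd36, a fatty acid translocase of the plasma membrane, was picked after its values were seen. It stood at 0.79, 10.6 and 5.81 FPKM in control, 0, 3.83 and 0.82 with CpG-A, 4.95, 40.7 and 20.9 with CpG-B, and 0.02, 1.94 and 18.9 with CpG-C, and it was not called in any comparison.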
